A study of Homo sapiens with 12 samples.

Results

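The regions described are the H2A.Z and acetylated H2A.Z (H2A.Zac) regions of K562 cells that depended on wild-type (WT) EP400. K562 is a human chronic myeloid leukemia line with erythroid features. In this line the endogenous EP400 carried a dTAG degron and was removed with 500 nM dTAGV-1 for 24 h, and an exogenous WT EP400 was expressed from the AAVS1 safe harbor locus. The tag, the rescue copy and the degrader were shared by every library used, and the line is 1 clone, so it is a model of rescued and not of unedited K562 chromatin. Each mark was profiled by ChIP-seq in 2 biological replicates, and 4 of the 12 libraries of the study were WT ChIP libraries of the marks. The regions came from lists that compared WT with ΔTRRAP, a line rescued with EP400 that cannot bind TRRAP. For each mark, the WT set was taken as the regions stronger in WT (lost in ΔTRRAP) together with the unchanged regions, and the regions stronger in ΔTRRAP (gained) were left out. This gave 54477 H2A.Z regions (12592 lost and 41885 unchanged) and 69742 H2A.Zac regions (24482 lost and 45260 unchanged), or 124219 of the 158028 regions of the series. The replicates had been merged before the regions were defined. The lists therefore hold no level per replicate, no spread between replicates can be given, the depth is unknown, and no difference below has a test across samples. The range behind a share is its Wilson 95% confidence interval and reflects the counting of regions or genes alone. The range behind a difference of 2 shares runs between the opposite ends of their intervals. It is wider than a 95% confidence interval of the difference.

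H2A.Z is a variant of histone H2A that replaces the canonical histone in nucleosomes next to active and poised transcription start sites (TSSs) and at enhancers. SRCAP and the TIP60 complex, of which EP400 is the scaffold and the exchange motor, deposit it, and the KAT5 subunit of TIP60 acetylates its N-terminal tail. Acetylated H2A.Z is known from active promoters and enhancers, whereas H2A.Z without the mark is also known from poised and silent genes. As far as the labels say, H2A.Z was pulled down without regard to acetylation. The comparison asks where the acetylated form was called together with H2A.Z, and where either was called without the other. Since H2A.Zac is itself a form of H2A.Z, H2A.Zac without H2A.Z means here that no H2A.Z region was listed. It does not mean that the variant was absent.

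The sequences just upstream of 6 start sites are examples from promoters where the marks were found together or apart within 1 kb of the TSS. They were chosen after their values were seen, because the genes recur below, and do not stand for their classes. The genes are H2AZ1 (an H2A.Z gene), HBD (delta-globin), KLF1 (an erythroid transcription factor), HEMGN (hemogen, a nuclear protein of erythroid cells), BCL11A (a repressor of fetal globin) and KDM5B (an H3K4 demethylase). H2AZ1 and HBD held both marks within 1 kb of the TSS. KLF1 held H2A.Zac across the whole window and 35 bp of H2A.Z. The nearest H2A.Z lay 0.265 kb from the H2AZ1 TSS and 0.965 kb from the KLF1 TSS, outside the bases printed for these genes. HEMGN held H2A.Zac and no H2A.Z, and BCL11A and KDM5B held H2A.Z and no H2A.Zac. Each is the 150 bases before the TSS, 5′ to 3′, from the RefSeq promoter table (GRCh38.p14), and all 6 genes lie on the minus strand. Capitals mark motif letters found on either strand, which were AGATAA for the GATA factors, AGCCAAT for the factor NF-Y, GGGCGGGG for the SP and KLF factors, and TATAAA for the TATA box.
H2AZ1, chr4:99950276-99950425: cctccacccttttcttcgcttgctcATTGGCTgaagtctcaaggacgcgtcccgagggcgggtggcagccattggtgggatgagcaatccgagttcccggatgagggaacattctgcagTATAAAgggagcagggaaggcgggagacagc
HBD, chr11:5234484-5234633: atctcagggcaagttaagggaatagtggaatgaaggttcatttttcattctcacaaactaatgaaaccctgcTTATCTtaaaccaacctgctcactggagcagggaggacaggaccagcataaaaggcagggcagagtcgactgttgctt
KLF1, chr19:12887202-12887351: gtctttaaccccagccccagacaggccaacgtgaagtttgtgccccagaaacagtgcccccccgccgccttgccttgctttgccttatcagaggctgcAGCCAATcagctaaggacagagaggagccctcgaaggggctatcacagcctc
HEMGN, chr9:97938173-97938322: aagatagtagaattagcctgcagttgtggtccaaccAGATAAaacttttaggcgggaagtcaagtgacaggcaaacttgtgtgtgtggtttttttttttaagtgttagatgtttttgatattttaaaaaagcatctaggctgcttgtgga
BCL11A, chr2:60553655-60553804: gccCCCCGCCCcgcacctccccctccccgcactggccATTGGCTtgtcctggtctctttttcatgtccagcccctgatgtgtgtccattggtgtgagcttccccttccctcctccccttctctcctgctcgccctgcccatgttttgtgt
KDM5B, chr1:202808422-202808571: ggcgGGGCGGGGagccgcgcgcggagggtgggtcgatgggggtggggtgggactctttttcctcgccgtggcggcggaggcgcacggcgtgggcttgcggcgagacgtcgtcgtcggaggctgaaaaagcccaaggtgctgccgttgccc

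The GC content of these stretches was 58.7% for H2AZ1, 45.3% for HBD, 59.3% for KLF1, 36.7% for HEMGN, 62.7% for BCL11A and 73.3% for KDM5B. The order of these 6 is not that of all genes, where promoters with both marks had the highest median GC content. KDM5B held 21 CpG dinucleotides, H2AZ1 held 8, KLF1 and BCL11A held 4 each, and HBD and HEMGN held 1 each. In the same 150 bases, 5.17% of 35116 RefSeq promoters held AGATAA, 5.20% held AGCCAAT, 18.2% held GGGCGGGG and 6.71% held TATAAA.

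H2A.Z lay mostly inside H2A.Zac, whereas H2A.Zac reached well beyond H2A.Z. A region was taken as lying together with the other mark where at least 25% of its length was covered by it. By this rule 41254 H2A.Z regions lay on H2A.Zac (75.7% of 54477) and 13223 did not, and 42355 H2A.Zac regions lay on H2A.Z (60.7% of 69742) and 27387 did not. In bases, H2A.Z covered 42.5 Mb and H2A.Zac 60.7 Mb, of which 30.5 Mb were shared, 12.0 Mb held H2A.Z without H2A.Zac and 30.2 Mb held H2A.Zac without H2A.Z. Of the H2A.Z regions, 42.8% were covered over their full length, 19.2% by 75 to under 100%, 9.19% by 50 to under 75%, 4.54% by 25 to under 50%, 1.87% by less than 25% and 22.4% not at all. For H2A.Zac, 11.2% of regions were covered in full, 24.8% by 75 to under 100% and 36.1% not at all. Among the regions that lay together, 56.5% of H2A.Z regions were wholly inside H2A.Zac, and 18.5% of H2A.Zac regions were wholly inside H2A.Z.

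When all regions within 1 kb of each other were joined into loci, 28942 of 49766 loci (58.2%) held both marks, 7674 held H2A.Z alone and 13150 held H2A.Zac alone. The loci with both marks held 86.9% of the H2A.Z bases and 78.1% of the H2A.Zac bases. Within them H2A.Zac covered more bases than H2A.Z in 70.2%, with a median of 1378 bp against 1131 bp. Loci with a single mark were small, since the median span was 588 bp with H2A.Z alone, 827 bp with H2A.Zac alone and 1661 bp with both.

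"Alone" is a statement about the lists, and the following measurements bear on it. First, a region gained in ΔTRRAP can hold signal in WT as well. Of the 13223 H2A.Z regions alone, 3986 (30.1%) lay on a gained H2A.Zac region, and among those near a TSS 57.5% did. Of the 27387 H2A.Zac regions alone, 663 (2.42%) lay on a gained H2A.Z region. Second, the regions of each list carry running numbers that skip, and a skipped number stands for a region that is not analysed here. The study kept the regions that lay in reproducible peaks, a step that leaves such gaps, and how many of the skipped numbers it accounts for was not tested. The numbers present made up 67.4% of the unchanged and 36.1% of the lost H2A.Z numbers, and 75.2% and 50.6% of those of H2A.Zac. A skipped number of the other mark could fall on the region for all but 1617 (12.2%) of the H2A.Z regions alone and all but 1655 (6.04%) of the H2A.Zac regions alone. Among all regions around which no number of the other mark was skipped, the share lying together was 88.8% (95% confidence interval, 88.3 to 89.3%) for H2A.Z and 78.2% (77.3 to 79.1%) for H2A.Zac. Regions alone passed this choice less often than regions together, at 1617 of 13223 against 12855 of 41254 for H2A.Z, so these shares are of a selected set and are not estimates for all regions. Last, many regions alone lay beside the other mark. Of the H2A.Z regions alone, 3532 (26.7%) lay within 1 kb of a listed H2A.Zac region or partly on one, and 50.4% of those near a TSS did. For H2A.Zac regions alone the values were 7945 (29.0%) and 53.5%.

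Regions with both marks lay nearer to genes than regions with a single mark. A region was TSS-proximal where it came within 1 kb of the start of any gene of GENCODE release 44. This held for 38.8% (38.3 to 39.3%) of H2A.Z regions on H2A.Zac and 23.4% (22.6 to 24.1%) of H2A.Z regions alone, and for 41.3% (40.8 to 41.7%) of H2A.Zac regions on H2A.Z and 18.5% (18.0 to 18.9%) of H2A.Zac regions alone. The median distance to the nearest TSS was 3.65 kb and 8.78 kb for H2A.Z regions together and alone, and 2.97 kb and 8.09 kb for H2A.Zac. Among the selected regions with no skipped number around them, 40.1% of the 12855 H2A.Z regions on H2A.Zac and 40.3% of the 1617 alone were TSS-proximal, a difference of -0.14 percentage points (-3.39 to 3.08). The values for H2A.Zac were 43.3% of 5938 and 23.1% of 1655. With the H2A.Z regions alone that lay on gained H2A.Zac left out, the H2A.Z difference was 24.6 points (23.4 to 25.8). It was 15.5 points with all regions.

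The marks differed in how togetherness fell with distance from genes. Of the H2A.Z regions that spanned a TSS, 87.2% (86.6 to 87.9%) lay on H2A.Zac, and the share fell step by step to 80.5% within 1 kb, 75.1% at 1 to 5 kb, 73.5% at 5 to 10 kb, 69.8% at 10 to 50 kb, 67.8% at 50 to 100 kb and 64.2% (61.8 to 66.6%) beyond 100 kb. H2A.Zac regions spanning a TSS lay on H2A.Z at nearly the same share, 86.8% (86.1 to 87.4%). Their share was 69.2% within 1 kb and 51.6% (50.8 to 52.5%) at 1 to 5 kb, and was then between 52.3 and 54.5% at every greater distance. Of the distance classes, 1 to 5 kb from a TSS thus had the lowest share of H2A.Zac regions on H2A.Z, with an interval that met that of 10 to 50 kb (51.6 to 53.0%).

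**Figure D1:**
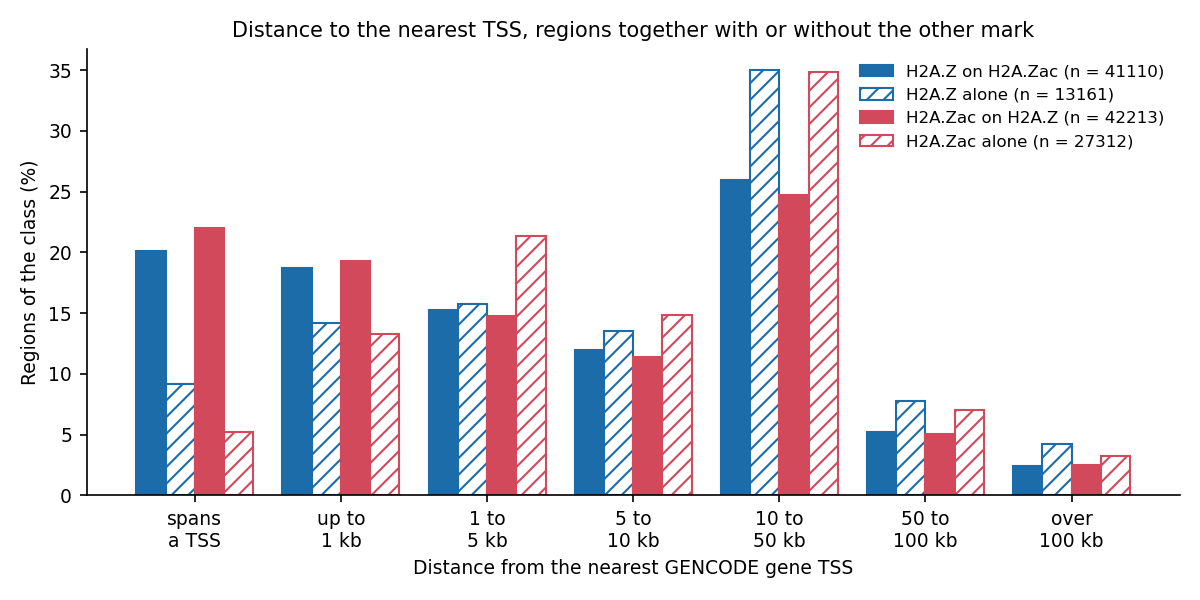
Share of the regions of each class (vertical axis, %) by distance from the nearest GENCODE gene TSS (horizontal axis), with H2A.Z in blue, H2A.Zac in red, filled bars for regions lying together with the other mark and hatched bars for regions alone; regions on contigs without genes are left out. Regions alone spanned a TSS less often (9.17% for H2A.Z and 5.18% for H2A.Zac) than regions together (20.1% and 21.97%), and H2A.Zac alone had the highest share at 1 to 5 kb, 21.3%.

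Introns of protein-coding genes were the place where H2A.Zac regions lay on listed H2A.Z regions least often. Of the H2A.Zac regions alone, 9341 (34.1%) had their center in an intron of a protein-coding gene away from TSSs, against 18.7% of those on H2A.Z. Counted the other way, 45.9% (45.2 to 46.7%) of the 17278 H2A.Zac regions in such introns lay on H2A.Z, against 57.8% (57.1 to 58.5%) of those between genes. H2A.Z behaved differently, since 73.2% (72.3 to 74.0%) of its 10596 regions in such introns and 69.97% (69.3 to 70.7%) of its regions between genes lay on H2A.Zac. H2A.Z alone was the class with the largest intergenic share, 38.3%, against 28.6% for H2A.Z on H2A.Zac.

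Around the TSSs of protein-coding genes the marks had different shapes. Each gene was represented by the TSS of its Ensembl canonical transcript. H2A.Z had a peak on each side of the start site, reaching 47.3% of the 19970 genes at 350 bp upstream and 53.4% at 200 bp downstream, with a dip to 36.4% at 100 bp upstream, where promoters are usually free of nucleosomes. H2A.Zac had no such dip and formed a plateau of 44.4% at 50 bp upstream and 41.8% at 350 bp downstream. H2A.Zac was also broader, since 28.4% of genes held it at 1 kb upstream and 21.6% at 1 kb downstream, against 18.6% and 11.0% for H2A.Z. Both marks reached further upstream than downstream. With the 5267 genes that held both marks and had no other TSS within 5 kb, the dip in H2A.Z (63.1%, between peaks of 79.4 and 89.7%) was also present.

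**Figure D2:**
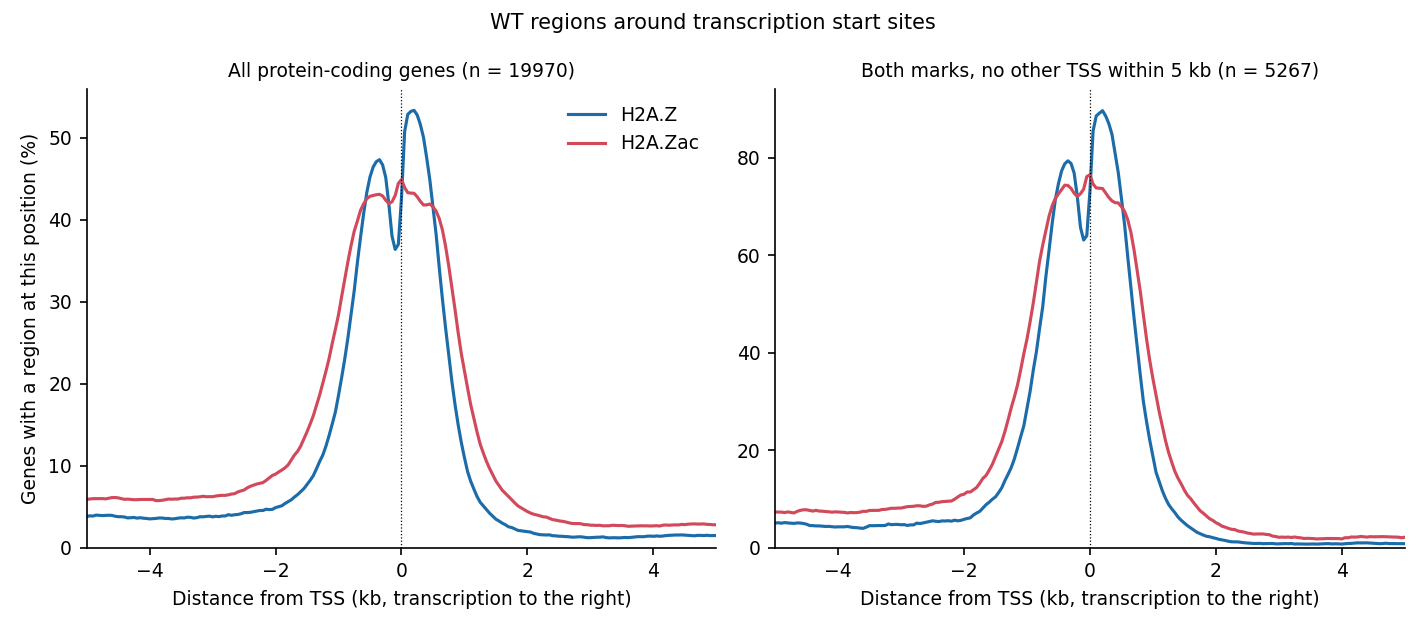
Share of genes with a WT region at each position (vertical axis, %) against the distance from the TSS in kb (horizontal axis, 50-bp steps), for all protein-coding genes (left) and for genes with both marks and no other TSS within 5 kb (right). H2A.Z (blue) had 2 peaks around a dip at 100 bp upstream, and H2A.Zac (red) had a flatter and broader profile.

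Sequence and width also separated the classes. The median GC content was 52.5% for H2A.Z regions on H2A.Zac and 49.6% for those alone, and 51.8% and 47.9% for H2A.Zac. Away from TSSs, where CpG islands are rarer, the differences were smaller, at 49.6% against 48.1% for H2A.Z and 49.0% against 47.3% for H2A.Zac. Among regions with no skipped number around them, H2A.Z together and alone had the same median of 54.0%, and H2A.Zac kept a difference, 53.8% against 51.5%. The share of H2A.Zac regions on H2A.Z rose with each step of GC content, from 44.3% (43.2 to 45.4%) under 40% GC to 87.9% (86.7 to 89.1%) at 70% and over. For H2A.Z the rise was shallower, from 68.7% (67.2 to 70.2%) under 40% to 83.2% at 60 to 65%, with 80.4% (79.0 to 81.7%) at 70% and over. Among TSS-proximal regions, H2A.Zac alone had the lowest CpG content. The median ratio of observed to expected CpG was 0.37 for TSS-proximal H2A.Zac regions alone, against 0.65 for those on H2A.Z, 0.67 for H2A.Z on H2A.Zac and 0.65 for H2A.Z alone. These classes also differed in position. The median distance to the TSS was 0.326 kb for H2A.Zac alone, 0.05 kb for H2A.Z alone and 0 kb for the classes together. The ratio was not compared at matched distance.

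Regions together were wider than regions alone, with median widths of 723 bp together and 499 bp alone for the variant and of 827 bp and 587 bp for its acetylated form. The share lying together rose from 61.6% at 250 to 300 bp to 92.9% at 2000 bp and over for H2A.Z. For H2A.Zac it rose from 43.9% to 77.0% at 1500 to 2000 bp and was 74.3% (72.9 to 75.6%) at 2000 bp and over. The widest H2A.Zac regions thus lacked H2A.Z more often than those of 1500 to 2000 bp, and the interval of the latter was 75.9 to 78.1%. The part of strength in the calling of narrow regions was not tested, since the lists hold no level in WT.

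**Figure D3:**
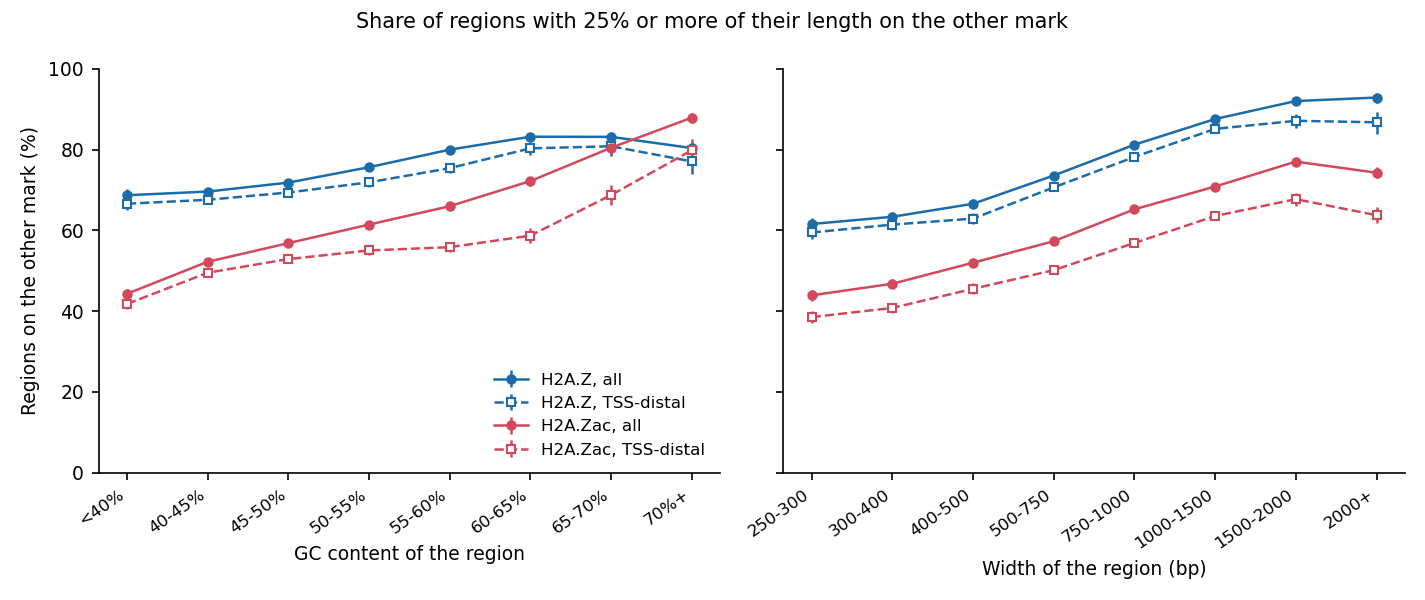
Share of regions lying together with the other mark (vertical axis, %) by GC content (left) and width in bp (right) of the region, for all regions (solid lines) and TSS-distal regions (dashed lines), with Wilson 95% confidence intervals as bars. H2A.Zac (red) rose from 44.3 to 87.9% over the GC classes, and H2A.Z (blue) rose from 68.7 to 83.2% at 60 to 65% and was 80.4% in the last class. With width H2A.Z rose to 92.9%, and H2A.Zac rose to 77.0% at 1500 to 2000 bp and was 74.3% above.

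Chromosomes differed as well. For H2A.Z the share lying together was lowest on chromosome 18 (66.8% of 1100 regions) and highest on chromosome 19 (86.3% of 3188), with a median of 75.8% over 23 chromosomes. For H2A.Zac it was lowest on chromosome X (48.8% of 2133) and highest on chromosome 19 (69.3% of 3876), with a median of 59.9%. Leaving out each chromosome in turn moved the genome-wide shares between 75.1 and 76.3% for H2A.Z and between 60.2 and 61.1% for H2A.Zac.

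At the level of genes, a gene was taken to hold a mark when a WT region of it overlapped the 2-kb window centered on its TSS. Of 19970 protein-coding genes, 11370 (56.9%) held both marks, 820 (4.11%) held H2A.Z only, 871 (4.36%) held H2A.Zac only and 6909 held neither. A single mark at a promoter was thus rare, and 331 of the 820 genes with H2A.Z only (40.4%) held a gained H2A.Zac region in the window, against 104 of the 871 with H2A.Zac only (11.9%) that held a gained H2A.Z region. The skipped numbers bear on nearly all of these genes, since no number of the missing mark was skipped around 118 of the 820 and 39 of the 871.

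Promoter GC content separated marked from unmarked genes more than it separated the marks. In the 1 kb centered on the TSS, the median was 64.0% for genes with both marks, 61.9% with H2A.Z only, 60.5% with H2A.Zac only and 54.2% with neither. The share with both marks rose from 8.59% under 45% GC to 73.8% at 65% and over. The share with H2A.Zac only was between 2.85 and 5.28% in all 6 GC classes and the share with H2A.Z only between 2.27 and 4.69%. The median CpG ratio was 0.79 with both marks, 0.73 with H2A.Z only, 0.66 with H2A.Zac only and 0.33 with neither.

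Long noncoding RNA (lncRNA) genes held both marks less often. Of 18756, 4271 (22.8%) held both, 520 held H2A.Z only and 818 (4.36%) held H2A.Zac only. Many lncRNAs start next to a protein-coding gene. Among the 10818 with no other TSS within 5 kb, 9.34% (8.80 to 9.90%) held both marks, against 47.3% (46.3 to 48.2%) of the 11144 protein-coding genes chosen the same way. Of those lncRNA genes, 394 (3.64%) held H2A.Zac only and 217 (2.01%) held H2A.Z only, against 4.21% and 4.17% of those protein-coding genes. A gained H2A.Zac region lay in the window of 81 of the 217, and a gained H2A.Z region in that of 13 of the 394. Small RNA genes and pseudogenes were mostly unmarked. Both marks were found at 10.9% of 1877 miRNA genes, 5.89% of 1884 snRNA genes and 4.19% of 10007 processed pseudogenes, and at 2.44%, 3.10% and 3.36% of those with no other TSS within 5 kb.

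Most genes of basic cell machinery held both marks, and most olfactory receptor, keratin-associated protein, bitter taste receptor and beta defensin genes held neither. All 18 listed genes of the TIP60 complex held both marks at the TSS, as did 56.9% of all protein-coding genes, among them EP400, TRRAP, KAT5, RUVBL1, RUVBL2 and ING3. The window at KAT5, the acetyltransferase, held 1273 bp of H2A.Z and 1756 bp of H2A.Zac. EP400, the edited gene, held 1292 bp and 532 bp, and regions gained in ΔTRRAP covered 815 bp (H2A.Z) and 1428 bp (H2A.Zac) of the same window. H2AZ1, SRCAP, ANP32E, INO80, ZNHIT1 and ACTR6, which encode H2A.Z and its exchange factors, held both as well, while H2AZ2 held 259 bp of H2A.Z and no H2A.Zac but had 1207 bp of gained H2A.Zac. Both marks were found at 74 of 78 mitochondrial ribosomal protein genes, 44 of 48 proteasome genes and 69 of 84 cytosolic ribosomal protein genes. Of the 84, 9 (10.7%) held H2A.Zac only, 3 (3.57%) H2A.Z only and 3 neither. Over all protein-coding genes, 4.36% held H2A.Zac only and 4.11% H2A.Z only. Of 573 genes of the receptor, keratin-associated and defensin families, 549 (95.8%) held neither mark and 12 held both. The share with neither was 34.6% over all protein-coding genes and 86.3% over those with a promoter GC content under 45%, and the median for these families was 40.8%. Zinc finger (ZNF) genes, many of which lie in clusters on chromosome 19, held both marks at 385 of 508 (75.8%, against 56.9% of all protein-coding genes).

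**Figure D4:**
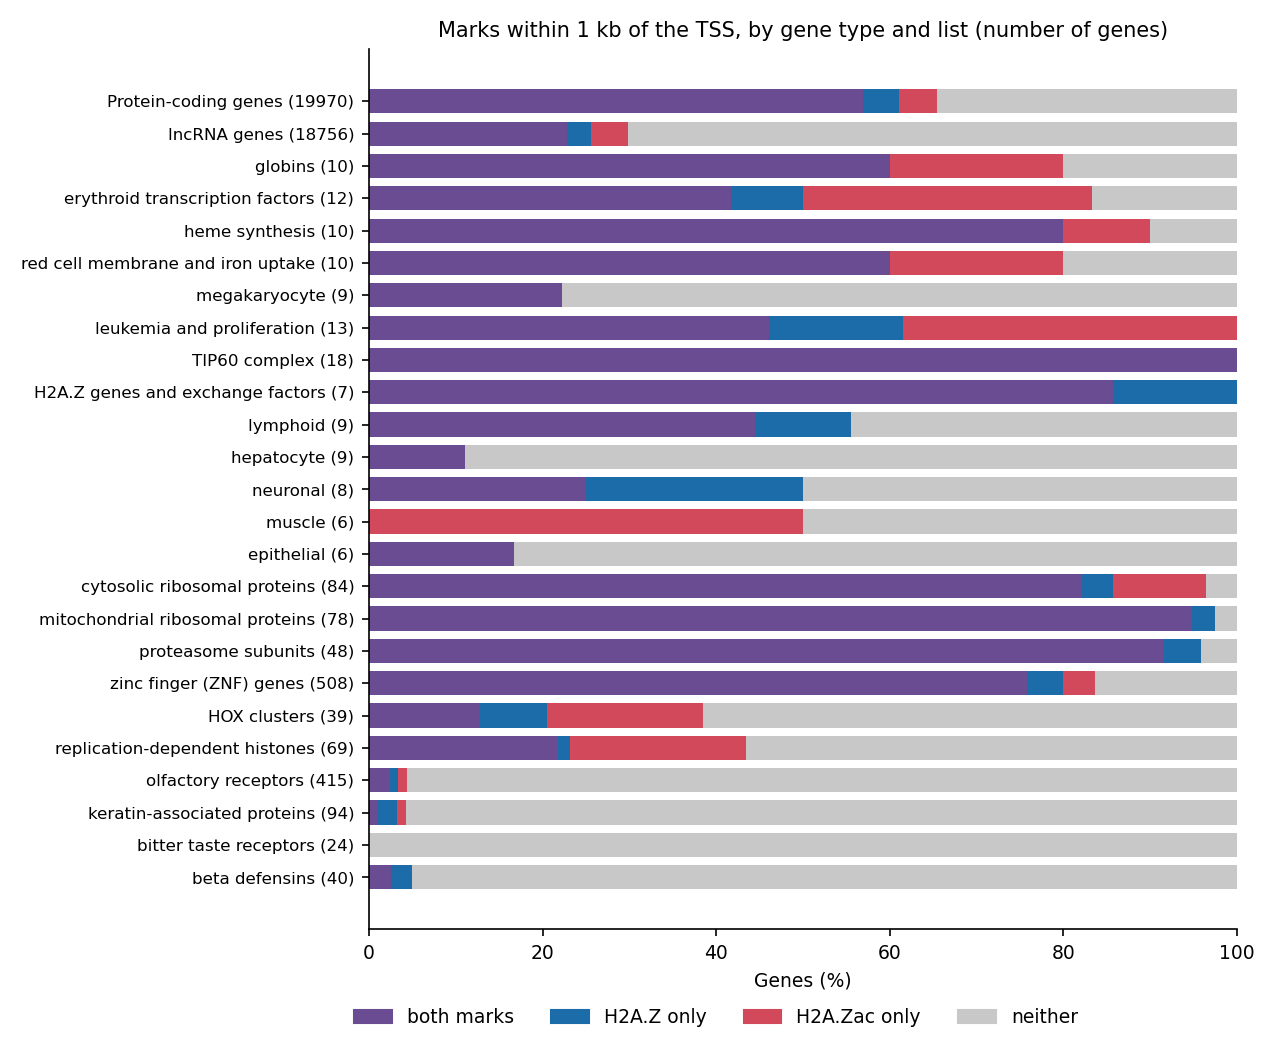
Share of genes (horizontal axis, %) with both marks (purple), H2A.Z only (blue), H2A.Zac only (red) or neither (gray) within 1 kb of the TSS, by gene type and gene list, with the number of genes in brackets. All 18 TIP60 genes held both marks, and red segments were widest in the muscle, leukemia and erythroid transcription factor lists, which hold 6, 13 and 12 genes.

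H2A.Zac without a listed H2A.Z region was found at several genes of the erythroid program. Of 42 genes in the globin, erythroid transcription factor, heme synthesis and red cell membrane lists, 25 (59.5%) held both marks, close to the 56.9% of all protein-coding genes, 1 held H2A.Z only and 9 (21.4%) held H2A.Zac only, where the background was 4.36%. The median H2A.Zac length in the window was 1200 bp and that of H2A.Z was 528.5 bp, against 790 and 795 bp over all protein-coding genes. The lists were chosen with earlier results of these data known, so these counts are a description. By list, H2A.Zac only was found at 4 of 12 transcription factor genes, 2 of 10 globin genes, 2 of 10 membrane genes and 1 of 10 heme genes, and its share was higher than 21.4% in the leukemia (5 of 13) and muscle (3 of 6) lists described below. Of 228 ribosomal, proteasome and TIP60 genes, 9 (3.95%) held H2A.Zac only. All 9 were among the 84 cytosolic ribosomal protein genes, of which they made up 10.7%.

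Among the 12 erythroid transcription factors, TAL1, NFE2, GFI1B and MYB held H2A.Zac only. H2A.Z numbers were skipped around each of them, with 1 lost and 5 unchanged at TAL1, 6 lost at NFE2, 8 and 1 at GFI1B and 5 and 2 at MYB. TAL1 is a partner of GATA1 in the core erythroid complex, and its start site lay in an H2A.Zac region of 2837 bp at chr1:47231413-47234249 with none of its length on H2A.Z. MYB, a factor of blood progenitors, held 939 bp of H2A.Zac in the window, and its H2A.Z and H2A.Zac regions gained in ΔTRRAP covered 1101 and 1103 bp there. KLF1 lay in an H2A.Zac region of 4509 bp (chr19:12884229-12888737), of which 30.7% was on a 1386-bp H2A.Z region downstream of the TSS. LMO2, LDB1, ZFPM1 and RUNX1 held both marks with at least 760 bp of H2A.Z. At GATA1, the master regulator of red cell genes, the window held neither, and the nearest H2A.Zac lay 2.94 kb from the TSS at chrX:48783236-48783647, in an intergenic stretch, while the nearest H2A.Z lay 9.20 kb away. GATA2, which is replaced by GATA1 in erythroid cells, held neither. Around GATA1, 3 lost and 1 unchanged H2A.Z numbers and 1 lost and 4 unchanged H2A.Zac numbers were skipped. Around GATA2, 2 unchanged H2A.Z numbers and 2 lost and 12 unchanged H2A.Zac numbers were, so regions that are not analysed here could lie at both. BCL11A was the opposite case, with a 1428-bp H2A.Z region upstream of its TSS (chr2:60553727-60555154) and no listed H2A.Zac within 28.0 kb. There 1 unchanged H2A.Zac number was skipped.

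The globin clusters showed both patterns. Alpha-type and beta-type globins pair to make hemoglobin, and K562 cells are known for the embryonic and fetal forms. In the alpha-globin cluster on chromosome 16, from 50 kb upstream of HBZ to 10 kb beyond HBQ1, there were 18 H2A.Z and 17 H2A.Zac regions, and 17 and 14 of these lay together. HBZ, HBM, HBA2, HBA1 and HBQ1 all held both marks. The window at HBA1 held 1526 bp of H2A.Z and 1581 bp of H2A.Zac, and that at HBZ 1108 and 1336 bp. In the beta-globin cluster on chromosome 11, cut the same way around HBE1 and HBB, there were 18 H2A.Zac regions and 2 H2A.Z regions, so that 16 H2A.Zac regions were alone. H2A.Zac covered 12058 bp of that stretch and H2A.Z 1384 bp. The fetal genes HBG1 and HBG2 held 1216 and 996 bp of H2A.Zac and no H2A.Z, and the nearest H2A.Z region was 15.3 and 20.2 kb away. HBD held both, and HBB and HBE1 held neither at the TSS. Upstream of HBE1, where the locus control region lies, 4 H2A.Zac regions and no H2A.Z region were found, the widest of them 2298 bp wide and about 18 kb from the HBE1 TSS. The clusters also differed in base composition, with a median GC content of the H2A.Zac regions of 69.9% in the alpha and 43.1% in the beta cluster. At HBG1, 7 lost and 3 unchanged H2A.Z numbers were skipped between the neighboring listed regions, so H2A.Z regions that are not analysed here could lie in this gap.

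**Figure D5:**
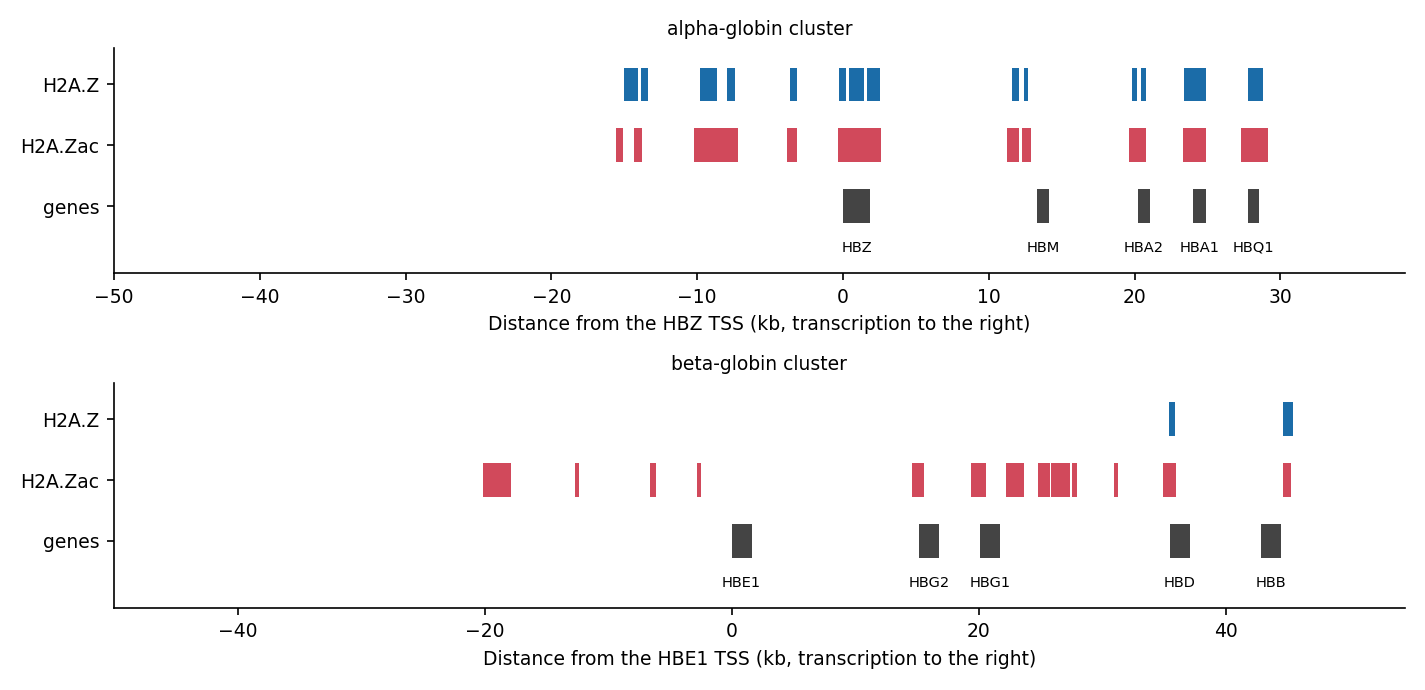
WT H2A.Z regions (blue), H2A.Zac regions (red) and globin genes (gray) by distance in kb from the HBZ TSS (top) and the HBE1 TSS (bottom), drawn to scale with transcription to the right. The alpha cluster held 18 H2A.Z and 17 H2A.Zac regions that mostly coincided, and the beta cluster held 2 H2A.Z and 18 H2A.Zac regions.

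In heme synthesis, ALAS1, ALAD, UROS, UROD, PPOX, FECH and SLC25A38 were among the genes with both marks, CPOX held 1640 bp of H2A.Zac only, and ALAS2, the erythroid form of the first enzyme, held neither. Around CPOX, 27 lost and 6 unchanged H2A.Z numbers were skipped. At PPOX the marks shared no base, with 409 bp of H2A.Z and 1121 bp of H2A.Zac in the window. Among red cell membrane genes, GYPC, SPTB, ANK1, EPB41 and the transferrin receptor gene TFRC were among those with both, and SLC4A1 and EPB42 held neither. Of 9 megakaryocyte genes, a lineage that K562 cells can enter, the integrin genes ITGA2B and ITGB3 held both marks and the other 7 held neither, where the shares over all protein-coding genes were 56.9% and 34.6%.

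All 13 listed leukemia and proliferation genes held a mark, where 34.6% of all protein-coding genes held neither. Of the 13, BCR, CCND1, CCND2, CCND3, BCL2L1 and LIN28B held both marks, ABL1, TERT, PIM1, CISH and SOCS2 held H2A.Zac only, and MYC and DACH1 held H2A.Z only, against a background of 56.9, 4.36 and 4.11%. H2A.Z numbers were skipped around each of the 5 with H2A.Zac only, with 1 lost at ABL1, 1 lost and 2 unchanged at TERT, 2 and 2 at PIM1, 4 and 2 at CISH and 7 and 2 at SOCS2. Several of the 13, such as TERT, CCND1 and DACH1, are named by the study. BCR, whose promoter drives the BCR-ABL1 fusion of this line, was covered by both marks over all 2000 bp of the window. CISH, PIM1 and SOCS2 are targets of STAT5 signaling, which acts downstream of that fusion. SOCS2 held H2A.Zac over 2000 bp, with H2A.Z starting 2.96 kb from the TSS. The TERT start site lay in a 1239-bp H2A.Zac region at chr5:1294353-1295591, and the nearest listed H2A.Z region was 49.4 kb away. Given the skipped numbers at TERT, H2A.Z regions that are not analysed here could lie nearer. MYC held 644 bp of H2A.Z, with the nearest listed H2A.Zac 9.90 kb away, but 2 unchanged H2A.Zac numbers were skipped there. DACH1 held 438 bp of H2A.Z, and 1929 bp of its window lay in H2A.Zac and 312 bp in H2A.Z gained in ΔTRRAP.

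Genes of other lineages served as a contrast. Of 38 lymphoid, hepatocyte, neuronal, muscle and epithelial genes, 24 (63.2%) held neither mark, 8 (21.1%) held both, 3 held H2A.Z only and 3 held H2A.Zac only, where 34.6% of all protein-coding genes held neither and 56.9% both. Each single-mark state was 7.89% of the 38, where the background was 4.11% for H2A.Z only and 4.36% for H2A.Zac only. Those with both included the lymphoid genes CD79A, CD3D, CD3E and LCK, the neuronal genes SYN1 and MAP2 and the epithelial gene EPCAM. CD4, NEUROG2 and SNAP25 held H2A.Z only, with 1070, 430 and 269 bp. The 3 with H2A.Zac only were the muscle genes DES, CKM and MYH7, with 1144, 335 and 88 bp, so that the last reached the window only with its edge. Expression was not analysed here, and neither mark was taken as a sign of it.

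HOX and histone genes were further families with H2A.Zac only above the 4.36% of all protein-coding genes, of which 56.9% held both marks and 34.6% neither. Of 39 HOX genes, 7 (17.9%) held H2A.Zac only, 3 (7.69%) held H2A.Z only, where the background was 4.11%, and 24 held neither, and the 5 with both marks were HOXC9, HOXC10, HOXB6, HOXB7 and HOXB13, named after their values were seen. HOXB6 held 1682 bp of H2A.Z and 2000 bp of H2A.Zac. Of 69 replication-dependent histone genes, which lie in dense clusters without introns, 14 (20.3%) held H2A.Zac only, 15 held both, 39 held neither and 1, H3C1, held H2A.Z only (1.45%). A region gained in ΔTRRAP lay in the window of 21 of the 39 histone genes with neither, against 307 of 6909 such genes among all protein-coding genes. Several of the H2A.Zac-only calls came from the edge of a region, with 70 bp at HOXB9, 92 bp at HOXD12, 108 bp at HOXB1, 42 bp at H4C5, 44 bp at H4C2 and 86 bp at H2AC12.

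The widest single-mark promoters were found by ranking protein-coding genes by covered bases within 5 kb of the TSS. Most H2A.Zac among 926 genes with no H2A.Z base in that window was found at HEMGN, with 8452 bp, and its start site lay in a 3634-bp region at chr9:97937865-97941498 with a GC content of 39.6%. It was followed by ZMYND8 (a chromatin reader), SMCO1, ITPRIP and GPR132, with 6463, 6462, 5205 and 5029 bp. Most H2A.Z among 782 genes with no H2A.Zac base was found at KDM5B, with 4854 bp, in regions that included chr1:202806814-202809067 over the TSS (GC content 64.5%). RNASE1 (a secreted ribonuclease), SLC22A23, SKIL (a SMAD corepressor) and ADGRD1 followed with 3777, 3604, 3542 and 3476 bp. At KDM5B, 7 unchanged and 2 lost H2A.Zac numbers were skipped, and at HEMGN 6 unchanged and 1 lost H2A.Z numbers were, so neither absence can be told apart from regions that are not analysed here. The genes with the most bases under both marks were ADAMTS4, ARID5B, FAM78A, PTCH1 and PDE4A, between 5489 and 5709 bp.

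Sequence motifs were counted in the central 300 bases of each region, on both strands, and a match is a description and not a bound site. Away from TSSs, AGATAA, which erythroid GATA factors recognize, was found in 17.3% (16.8 to 17.8%) of H2A.Zac regions alone and 14.7% (14.3 to 15.2%) of those on H2A.Z. For H2A.Z, 14.4% of regions both alone and on H2A.Zac held it, but by GC content the values on H2A.Zac and alone were 23.03% and 22.7% under 45% GC, 17.0% and 13.3% at 45 to 50%, 11.6% and 10.8% at 50 to 55% and 5.62% and 5.85% above. At matched GC content the difference for H2A.Zac was smaller, with 25.7% against 23.6% under 45% GC, 16.7% against 16.4% at 45 to 50%, 12.6% against 11.0% at 50 to 55% and 6.05% against 5.68% above. The E-box CACGTG was also more frequent in distal H2A.Zac regions alone, 7.59% (7.25 to 7.94%) against 6.18% (5.89 to 6.49%) on H2A.Z, and least frequent in distal H2A.Z regions alone, 3.84% (3.48 to 4.23%). The GC box GGGCGGGG went the other way, at 2.42% (2.22 to 2.63%) of distal H2A.Zac regions alone against 4.96% (4.70 to 5.24%) of those on H2A.Z. Neither the E-box nor the GC box was counted at matched GC content, and the median GC content of distal H2A.Zac regions was 47.3% alone and 49.0% on H2A.Z.

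At the promoters themselves, the 300 bases centered on the TSS held GGGCGGGG in 41.8% of genes with both marks, 35.7% with H2A.Z only, 29.7% with H2A.Zac only and 16.5% with neither, against 32.3% of all 19970. The ETS motif CCGGAAG was found in 19.7% of genes with both marks, 11.2% with H2A.Z only, 11.3% with H2A.Zac only and 3.73% with neither. TATAAA ran in the opposite order, with 3.07% (2.77 to 3.40%) with both marks, 6.22% (4.76 to 8.09%) with H2A.Z only, 8.61% (6.92 to 10.7%) with H2A.Zac only and 16.6% (15.7 to 17.5%) with neither. AGATAA was found in 2.83% of genes with both marks, 3.90% (2.78 to 5.46%) with H2A.Z only, 6.54% (5.09 to 8.38%) with H2A.Zac only and 9.89% with neither. The NF-Y motif AGCCAAT was found in between 6.57 and 8.36% of the genes of each state.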

How the data were processed

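The authors aligned paired-end reads to hg38 with Bowtie2 2.4.5, called peaks with MACS2 2.2.7.1, merged the replicates, compared WT with ΔTRRAP with bdgdiff, and kept regions with at least 25% of their length in reproducible peaks of the lines. The 6 deposited lists give region positions and a score, the authors' log10 likelihood ratio between lines, which is no level in WT and was not used. Here the WT sets were joined, overlaps were counted at 25% of region length, and TSSs, gene types and canonical transcripts came from GENCODE release 44. Region classes used the 5′ ends of all genes and gene states the canonical TSS, because for 16.6% of protein-coding genes the ends differ by over 1 kb. The members, gene lists and motifs were chosen with earlier results of these data known, and the globin windows, the printed promoters and the named HOX genes after their values were seen. Named were the members of the lists described and the 5 leading genes of each ranking. Some listed genes are counted but not reported here by name. Python 3.11.15, pandas 2.3.3, scipy 1.17.1 and bedtools 2.31.1 were used. Covered lengths, also tested on simulated data, differed from bedtools for 0 of 54477 and 0 of 69742 regions. The alternatives were other overlaps, windows, annotations, width limits and lists. Input libraries, expression and signal tracks were not analysed here.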

Additional observations from a re-analysis of the deposited data

Results flagged for a closer look

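Regions outside chromosomes 1 to 22 and X lay where no gene was compared, and are given here because they hold signal outside the gene and chromosome comparisons. They were counted in the totals, overlaps and region classes. They were 210 of the WT H2A.Z regions, of which 70.5% (95% confidence interval, 64.0 to 76.2%) lay on H2A.Zac, and 224 of the WT H2A.Zac regions, of which 65.2% (58.7 to 71.1%) lay on H2A.Z.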

How the results depend on the processing

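Of 50 alternatives over 10 results, 11 stayed within the counting error, 38 moved a value beyond it and 1 took a difference to just below 0. The share of H2A.Z regions on H2A.Zac was 77.6% with 1 bp covered, 71.2% with 50% covered, 71.7% in bases, 76.6% with regions merged first, 75.2% for regions of at least 500 bp, 83.0% with gained H2A.Zac counted and 66.9% in the unchanged lists alone. The share of H2A.Zac regions on H2A.Z was 63.9, 52.8, 50.2, 64.4, 57.6, 61.7 and 62.9% in the same order. Without skipped numbers of the other mark, a choice made after seeing the data, the shares were 88.8 and 78.2%.

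There the TSS-proximal share of H2A.Z regions together minus alone went from 15.5 to -0.14 percentage points (-3.39 to 3.08), and the difference in median GC went from 2.86 to 0.0031 points. For H2A.Zac they were 20.2 and 2.34 points, and the difference in median width was 298 bp. With 50% covered, the TSS-proximal difference was 10.3 points for the variant and 19.7 for the acetylated form, the difference in GC for H2A.Z was 2.22 points, and those in width were 184.5 and 191 bp. For H2A.Zac the TSS-proximal difference was 20.1 points with 2-kb flanks and 20.8 with starts of protein-coding genes. Away from TSSs the differences in GC were 1.42 and 1.71 points. With H2A.Z regions on gained H2A.Zac left out, also chosen after seeing the data, the H2A.Z differences were 24.6 points in TSS-proximal share and 3.94 in GC. The causes were not tested.

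Both marks were found at 53.9% of protein-coding genes with 500-bp flanks, 59.0% with 2-kb flanks, 59.6% with gained regions and 54.9% with the gene 5′ end, chosen after seeing the data. For lncRNA genes the first 3 settings gave 20.4, 25.6 and 24.6%.

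No paired analysis was possible because the lists hold no value per replicate. Leaving out a replicate was not run, for the same reason. The regions behind skipped numbers are not analysed here. Every count of regions or genes with a single mark, and of genes with neither, depends on them. Depth is unknown, so the absence of a region does not show the absence of the mark.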
